A study of Danio rerio with 10 samples.

Results

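The 110 transcripts described here are the most abundant ones of fluorescence-sorted pigment cells from anal fins of zebrafish, Danio rerio. They were chosen by CPM, the estimated counts of a transcript per 1000000 counts of its library: each had a mean of at least 1000 CPM in xanthophores or in xantho-leucophores, out of 57775 transcripts listed. Of the 110, 52 reached that level in both cell types, 25 in xanthophores only and 33 in xantho-leucophores only. All fish carried the transgene Tg(aox5:palmEGFP), in which the aox5 promoter drives a membrane-bound green fluorescent protein, and had a standard length of about 14 mm. Xanthophores were the fluorescent cells of yellow regions of the fin and xantho-leucophores those of its white regions. Each group had 5 libraries, and each library came from cells pooled from 20 fish. Age and sex are not given in the sources used here.

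Xanthophores are neural-crest-derived pigment cells that look yellow to orange because they hold pteridines and carotenoids. Leucophores are white cells whose organelles scatter light, and the name xantho-leucophore joins both properties. In any cell a small number of transcripts takes a large part of all messenger RNA, and a shift in one of these changes the share left for every other transcript. The study asks which cell types underlie white fin ornaments. The tables list versioned Ensembl transcript identifiers without gene names, and the gene tables used here hold none of them, so 0 identifiers could be paired with a gene. For that reason no function is given for any transcript, the cell type labels could not be checked against marker genes, and no transcript sequence is shown. Transcripts are called by their place in mean CPM over the 10 libraries, from 1 to 110.

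Library totals ran from 7735704 to 62617916 estimated counts, the lowest in xantho-leucophore replicate 2 (XL2; X and XL with a number stand for xanthophore and xantho-leucophore replicates). At 1000 CPM a transcript held 7736 counts in XL2 and from 42105 to 62618 in the other libraries. Counting error alone then gives a coefficient of variation of 1.14% in XL2 and at most 0.487% elsewhere, well below the spread between libraries given further on. Fragment length, read from the difference between listed and effective transcript lengths, was 184.92 to 204.31 bases in xanthophores and 210.92 to 235.05 bases in xantho-leucophores. It separates the groups without overlap, so cell type and whatever set the fragment length cannot be told apart from these libraries alone.

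A single transcript, ENSDART00000062587.6 of 2180 bases, held place 1 in each of the 10 libraries. In xanthophores it took 5.90%, 3.54%, 10.4%, 13.6% and 19.4% of the estimated counts in replicates 1 to 5. In xantho-leucophores it took 8.92%, 15.4%, 15.2%, 10.95% and 9.37%. The xanthophore libraries thus spanned the whole range of the xantho-leucophore libraries and went beyond it on both sides. Its level was 105661 ± 62859 CPM among xanthophores and 119629 ± 31271 CPM among xantho-leucophores (SD, n = 5 each). In edgeR's quasi-likelihood test its log2 fold change, xantho-leucophore over xanthophore, was 0.19 with a 95% interval of -0.69 to 1.08 (adjusted p = 0.947), an interval too wide to show that the cell types are alike. This transcript was 3.20 times as abundant in counts as the runner-up in X2 and 20.8 times in X5.

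The 110 transcripts together took 26.9%, 24.99%, 29.9%, 32.5% and 36.6% of the counts in X1 to X5, and 29.6%, 34.3%, 34.2%, 31.01% and 30.02% in XL1 to XL5. The rule chose the transcripts on these values, so the shares are given without a test. Most of the difference between libraries lay in place 1. With that transcript taken out of the sum and of the total, the other 109 held from 21.33% to 22.35% of the counts in xanthophores (21.9 ± 0.413%, SD, n = 5). They held from 22.36% to 22.79% in xantho-leucophores (22.6 ± 0.177%, SD, n = 5). These ranges narrowly missed each other. The rule had taken in 33 transcripts through xantho-leucophores only and 25 through xanthophores only, so no result is read from this. The order of the libraries also changed: X5 had the highest share with place 1 included and the lowest, 21.3%, without it.

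Places 2 to 10 summed to 4.51% to 5.60% of the counts in xanthophores and 5.47% to 6.01% in xantho-leucophores. Places 11 to 110 summed to 12.7% to 15.8% and to 13.5% to 14.7%. The 52 transcripts abundant in both cell types, place 1 left out, held a mean of 13.8% of the counts in xanthophores and 13.1% in xantho-leucophores. The 25 that reached the threshold in xanthophores only held 3.67% there and 1.78% in xantho-leucophores. The 33 that reached it in xantho-leucophores only held 4.99% there and 2.18% in xanthophores. The shared 51 transcripts therefore made up the larger part of the counts of the 109 in each cell type.

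**Figure D1:**
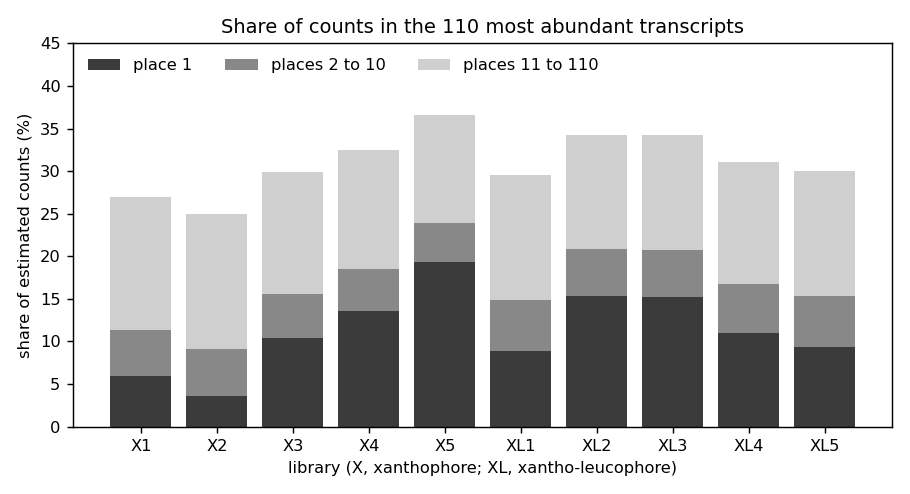
Stacked bars give the share of estimated counts (%) in each library taken by place 1, places 2 to 10 and places 11 to 110. The height of the darkest segment runs from 3.54% in X2 to 19.4% in X5, and the paler segments vary much less.

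Whether the libraries of one cell type were dominated more by their own most abundant transcripts was tested on 4 measures. They rank transcripts within each library and do not take the list of 110 as input. They are still not independent of the rule, because much the same transcripts lead each library, with place 1 first in all 10. The 100 most abundant held 36.57% of the counts in X5 and 24.87% in X2, where the 110 transcripts held 36.58% and 24.99%. The 10 most abundant transcripts of a library held 15.9 ± 5.84% of its counts in xanthophores and 17.9 ± 2.87% among xantho-leucophores (SD, n = 5 each; exact two-sided permutation p = 0.492). The 100 most abundant held 30.1 ± 4.63% and 31.6 ± 2.32% (exact two-sided permutation p = 0.540). To reach 50% of the counts took 635.8 ± 144 transcripts among xanthophores and 581.4 ± 73.5 among xantho-leucophores (exact two-sided permutation p = 0.468). With the share of the most abundant transcript (exact two-sided permutation p = 0.651), each of the 4 had an adjusted p of 0.651. All 4 differences were smaller than the spread between libraries, and 5 libraries against 5 can give a p as small as 0.00794. All 4 measures include place 1, whose share had a SD of 6.29 percentage points in xanthophores and 3.13 in xantho-leucophores. They are therefore not 4 separate results. Whether the leading transcripts other than place 1 weigh alike in both cell types was not tested.

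Levels of different transcripts can be compared only per length, for which the deposited TPM values, which divide counts by effective length before scaling, were used. By TPM place 1 was again first, at 79856 ± 48764 TPM among xanthophores and 86073 ± 22354 among xantho-leucophores (SD, n = 5 each). Second was place 7, a transcript of 408 bases, at 27185 ± 1503 TPM in xanthophores and 40042 ± 2383 in xantho-leucophores. Its effective length was a mean of 233 bases in xanthophores and 220 in xantho-leucophores, so the TPM difference includes a part that comes from fragment length. By CPM, which does not divide by length, its ratio of group means, xantho-leucophore over xanthophore, was already 1.46. Next over all libraries was place 5, of 672 bases, at 8357 ± 433 and 29334 ± 707 TPM.

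Short transcripts stood higher by TPM than by CPM, as the length scaling implies. Places 16, 26 and 19, of 691, 677 and 786 bases, were at 8193, 6331 and 6129 TPM over the 10 libraries and held the fifth, eighth and ninth positions in TPM. The longest transcript of the list, place 20 with 20569 bases, was at 158 TPM and held position 109 of 110. Place 47, with 15886 bases, was last at 127 TPM. A list of the 110 highest mean TPM values would hold 69 of the 110 transcripts. The 10 highest transcripts of each cell type had 9 in common by TPM and 6 in common by CPM, so the leading transcripts were largely shared on the scale per length.

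**Figure D2:**
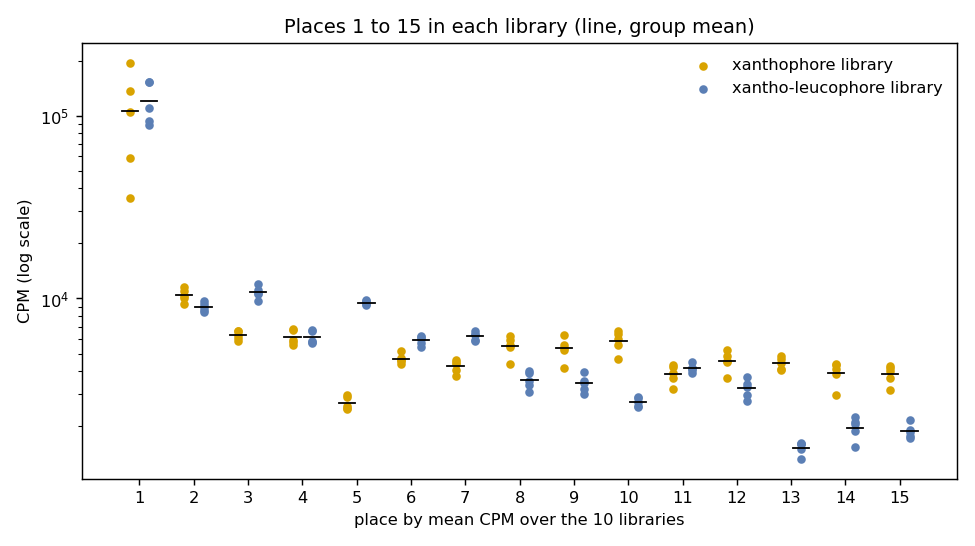
Points give CPM (log scale) of places 1 to 15 in each xanthophore and xantho-leucophore library, with a line at the group mean. The libraries of a group lie close together except at place 1, and places 5 and 13 show groups that lie far apart in opposite directions.

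Among the 52 transcripts abundant in both cell types, 10 rose and 19 fell from xanthophores to xantho-leucophores (edgeR's quasi-likelihood test, adjusted p under 0.05 over all tested transcripts). The other 23 did not pass the test. Over all 28667 tested transcripts 2.47% were called higher and 2.56% lower, 5.03% in all. Abundant transcripts pass more often, and among the 1434 tested transcripts with a mean of 100 to 1000 CPM outside the list, 18.7% were called higher and 18.5% lower, 37.2% in all. The 10 higher calls are 19.2% of the 52, beside 18.7% in that second background, and the 19 lower calls are 36.5%, beside 18.5%. These shares are not like for like, because the 52 had to be abundant in both cell types. The background was chosen on the mean over all libraries, so it can keep transcripts that are high in a single cell type. The median log2 fold change of the 52 was -0.03, beside -0.04 over all tested transcripts. In sorted bulk samples a lower level can come from fewer cells that express a transcript or from less RNA per cell, and these cannot be told apart.

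Most of these changes were below 2-fold. The 10 rises ran from 1.22-fold to 3.63-fold, and 1 of them exceeded 2-fold. The 19 falls ran from 1.23-fold to 2.82-fold, and 4 exceeded 2-fold. CPM ranges of the groups did not overlap for 9 of the 10 rises and 18 of the 19 falls. These had already been picked by the test, which favours separate ranges. Of all 52, called or not, 28 had ranges that did not overlap. Over all tested transcripts 8.64% had ranges that did not overlap, 3.35% with the higher range in xantho-leucophores and 5.3% with the lower. That background takes in called and uncalled transcripts, so it stands beside the 28 of 52, and it is not matched for abundance. DESeq2 split the 52 more evenly, with 17 called higher and 20 lower, where it called 5.3% of all transcripts higher and 4.69% lower. When each library's fragment length entered the edgeR fit as a covariate, 10 of the 52 were called higher and 7 lower, 15 of the 29 calls remained, and all 29 kept their sign. Calls over all transcripts dropped as well in that fit, from 1443 to 503, with 1.08% higher and 0.673% lower. That fit shifted the median over all tested transcripts, on the log2 scale, from -0.04 to 0.17. The median of the 52 themselves went from -0.03 to 0.06. Which of these medians is the proper base for its values was not tested, and fragment length is confounded with the groups.

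ENSDART00000180007.1, at place 5, had the largest rise. It was at 2975, 2877, 2596, 2516 and 2483 CPM in X1 to X5 and at 9630, 9552, 9177, 9343 and 9772 CPM in XL1 to XL5. Each cell type formed a tight group, and the lowest xantho-leucophore library was more than 3 times the highest xanthophore library. The log2 fold change was 1.86 (SE 0.05; edgeR adjusted p = 4.99e-09). Its rank among all transcripts by mean CPM was 19 in xanthophores and 3 in xantho-leucophores. With fragment length as a covariate the log2 fold change was 1.98 (edgeR adjusted p = 2.58e-07). The larger value is not read as a stronger rise. In that fit the median of all tested transcripts went from -0.04 to 0.17 and that of the 52 from -0.03 to 0.06.

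ENSDART00000009182.5, at place 3 with 1806 bases, had the next largest rise. It was at 6667, 6632, 6349, 6047 and 5890 CPM in X1 to X5 and at 11122, 9650, 10670, 10631 and 11938 CPM in XL1 to XL5. Groups did not overlap, and the transcript became the second most abundant of xantho-leucophores by CPM. The log2 fold change was 0.81 (SE 0.06, edgeR adjusted p = 9.17e-06), and 0.999 with the fragment length covariate (edgeR adjusted p = 0.000105). Here too the 2 values may not be on the same base. The medians were -0.04 and 0.17 for all tested transcripts and -0.03 and 0.06 for the 52.

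ENSDART00000026021.8, at place 13 with 1273 bases, had the largest fall. It was at 4876, 4650, 4437, 4046 and 4097 CPM in X1 to X5 and at 1500, 1612, 1327, 1599 and 1603 CPM in XL1 to XL5. Every xantho-leucophore library lay far below every xanthophore library. The log2 fold change was -1.49 (SE 0.06; edgeR adjusted p = 9.37e-08), and the rank went from 10 to 41. ENSDART00000048448.9, at place 28 with 1590 bases, was at 3055, 3240, 2822, 2738 and 2564 CPM in X1 to X5 and at 1036, 987, 1057, 1048 and 1066 CPM in XL1 to XL5. Its xantho-leucophore libraries were close to one another, with a SD of 31.1 CPM. That is a coefficient of variation of 2.99%, beside 2.48% for place 5 in the same libraries. The log2 fold change was -1.43 (SE 0.06; edgeR adjusted p = 1.26e-07), and the rank went from 16 to 79. Both falls passed with the fragment length covariate, at log2 fold changes of -1.47 and -1.26 (edgeR adjusted p = 6.80e-05 and 2.16e-05). In that fit the median of all tested transcripts was 0.17, where the main test had -0.04. For the 52 it was 0.06, where the main test had -0.03.

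**Figure D3:**
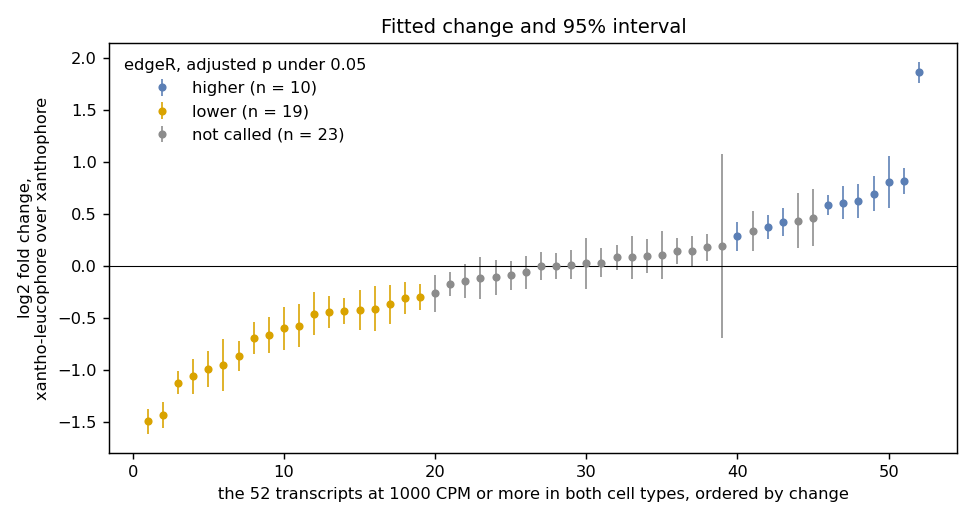
Points give the fitted log2 fold change, xantho-leucophore over xanthophore, of the 52 transcripts at 1000 CPM or more in both cell types, ordered by size, and bars give the 95% interval. The 10 higher and 19 lower calls are coloured, and the widest interval, from -0.69 to 1.08, belongs to place 1.

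Other leading transcripts moved by smaller amounts. Place 7, the short transcript of 408 bases, went from 4269 ± 351 to 6230 ± 321 CPM (SD, n = 5 each), a log2 fold change of 0.58 (SE 0.05; edgeR adjusted p = 1.36e-05). Place 6, of 1932 bases, went from 4686 ± 303 to 5897 ± 332 CPM, a log2 fold change of 0.37 (SE 0.05; edgeR adjusted p = 0.00149). Place 10, of 2358 bases, fell from 5852 ± 778 to 2719 ± 163 CPM, a log2 fold change of -1.06 (SE 0.08; edgeR adjusted p = 9.24e-06). In these 3 the group ranges did not overlap, and each passed with the fragment length covariate.

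Places 8, 9 and 12 were of similar length, 5750, 5797 and 5610 bases, and had similar values. Place 8 was at 5411, 6218, 5574, 5900 and 4365 CPM in X1 to X5 and at 3900, 3085, 3368, 4002 and 3528 CPM in XL1 to XL5. Place 9 was at 5345 ± 779 and 3429 ± 371 CPM, and place 12 at 4561 ± 570 and 3224 ± 387 CPM (SD, n = 5 each). X2 was the highest library and X5 the lowest xanthophore library for all 3. The log2 fold changes were -0.58, -0.60 and -0.46 (edgeR adjusted p = 0.00355, 0.00250 and 0.0137), and the groups overlapped for place 12. With the fragment length covariate the log2 fold changes were -0.37, -0.57 and -0.33, and none of the 3 passed (edgeR adjusted p = 0.385, 0.173 and 0.539). The printed value of place 9 moved little. With the covariate the median of all tested transcripts went from -0.04 to 0.17 and that of the 52 from -0.03 to 0.06. The 2 values of place 9 may therefore not be on the same base.

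Places 14 and 15, both of 2302 bases, formed a similar pair. Place 14 was at 3926 ± 578 CPM in xanthophores and 1968 ± 271 in xantho-leucophores, and place 15 at 3859 ± 441 and 1882 ± 168 (SD, n = 5 each). Both fell, with log2 fold changes of -0.95 and -0.99 (edgeR adjusted p = 0.000452 and 2.30e-05). With the fragment length covariate place 15 passed (edgeR adjusted p = 0.00439) and place 14 did not (edgeR adjusted p = 0.0888). Neither had whole-number counts in every library, so each shared reads with other transcripts, and whether the 2 belong to the same gene is not given in the sources used here.

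Of the 23 transcripts that did not pass, 19 had a 95% interval of the log2 fold change that lay within 0.5 on either side of 0. Place 4, of 1551 bases, was at 6691, 6835, 5958, 5796 and 5589 CPM in X1 to X5 and at 6685, 5878, 5686, 5770 and 6675 CPM in XL1 to XL5. The libraries of both cell types covered the same range, and the interval ran from -0.10 to 0.17 (edgeR adjusted p = 0.943). Place 26, of 677 bases, was at 2095 ± 225 and 2034 ± 102 CPM (SD, n = 5 each), with an interval of -0.13 to 0.13. Place 57, of 3386 bases, was at 1336 ± 131 and 1298 ± 69.3 CPM, with an interval of -0.13 to 0.12.

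Place 2 lay closer to the threshold than these. It was at 11562, 11054, 10348, 10027 and 9299 CPM in X1 to X5 and at 9349, 8473, 8620, 8937 and 9688 CPM in XL1 to XL5, with overlap of X5 with XL1 and XL5. The interval ran from -0.29 to -0.06, but the adjusted p over all tested transcripts was 0.108 in the edgeR test. Places 16 and 19 did not pass in the main test (edgeR adjusted p = 0.737 and 0.294) and passed as higher with the fragment length covariate, at log2 fold changes of 0.38 and 0.33 (edgeR adjusted p = 0.0283 and 0.0314). With that covariate the median of all tested transcripts was 0.17, beside -0.04 in the main test. That of the 52 was 0.06, beside -0.03.

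The 2 transcripts longer than 10000 bases were both higher in CPM in each xantho-leucophore library than in any xanthophore library. Place 20 was at 1730, 1798, 1929, 1917 and 2140 CPM in X1 to X5 and at 2246, 3544, 2478, 2296 and 2264 CPM in XL1 to XL5. XL2 stood far above the others. Its log2 fold change was 0.46 (SE 0.12) and did not pass (edgeR adjusted p = 0.0634). Place 47 was at 1023 ± 77.5 and 1748 ± 324 CPM (SD, n = 5 each), again with its highest value, 2308 CPM, in XL2. That library had both the longest fragments and the lowest total of counts, and the cause of its high values was not tested. Place 47 rose by a log2 fold change of 0.80 (SE 0.11, edgeR adjusted p = 0.00140), and did not pass with the fragment length covariate (log2 fold change 0.43, edgeR adjusted p = 0.235). The median of all tested transcripts was 0.17 with that covariate and -0.04 without it, and that of the 52 was 0.06 and -0.03.

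The 58 transcripts that reached 1000 CPM in a single cell type had to differ to some degree by the rule, so their values are a description with no test. Of the 33 that reached it in xantho-leucophores only, the ratio of group means ran from 1.05 to 15.6 with a median of 1.92, and 6 had a ratio of at least 4. Of the 25 that reached it in xanthophores only, the ratio of xanthophores over xantho-leucophores ran from 1.04 to 4.02 with a median of 2.26, and 1 had a ratio of at least 4. The 3 highest ratios, from 12.9 to 15.6, all belonged to the first kind. At the other end, 4 of the 33 and 2 of the 25 had ratios under 1.2 and lay on different sides of the threshold by little.

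Place 23, of 2579 bases, had the highest level among these 3. It was at 253, 301, 236, 286 and 276 CPM in X1 to X5 and at 4463, 3072, 4061, 3880 and 4254 CPM in XL1 to XL5, a ratio of means of 14.6. Its rank among all transcripts was 464 in xanthophores and 9 in xantho-leucophores. Place 56, of 4877 bases, was at 157, 184, 159, 205 and 88.9 CPM in X1 to X5 and at 2932, 1812, 2307, 2634 and 2703 CPM in XL1 to XL5. That ratio, 15.6, was the highest of the 110, and the rank went from 905 to 20.

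Place 110, of 4922 bases, was at 111, 84.6, 124, 83.7 and 41.9 CPM in X1 to X5 and at 1204, 1216, 1034, 1216 and 1063 CPM in XL1 to XL5. X5 was the lowest library for this transcript and for place 56. Other ratios were far smaller: place 32 went from 709 ± 20.7 to 2994 ± 208 CPM, a ratio of 4.22, and place 35 from 686 ± 56.4 to 2836 ± 277 CPM, a ratio of 4.13 (SD, n = 5 each). Place 32 was among the steadiest transcripts of xanthophores, with values from 673 to 723 CPM.

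Among transcripts that reached the threshold in xanthophores only, place 18, of 2397 bases, stood highest. It was at 4214, 4529, 3946, 4030 and 3303 CPM in X1 to X5 and at 1105, 934, 773, 1174 and 1000 CPM in XL1 to XL5. The ratio of means was 4.02, and the rank was 12 in xanthophores and 86 in xantho-leucophores. The group mean of 997 CPM in xantho-leucophores was just under the threshold. Place 109, of 2634 bases, was at 1025 ± 139 CPM among xanthophores and 289 ± 45.8 among xantho-leucophores (SD, n = 5 each), a ratio of 3.54, and its rank was 73 and 390. It was thus still well detected in the cell type where it was lower.

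**Figure D4:**
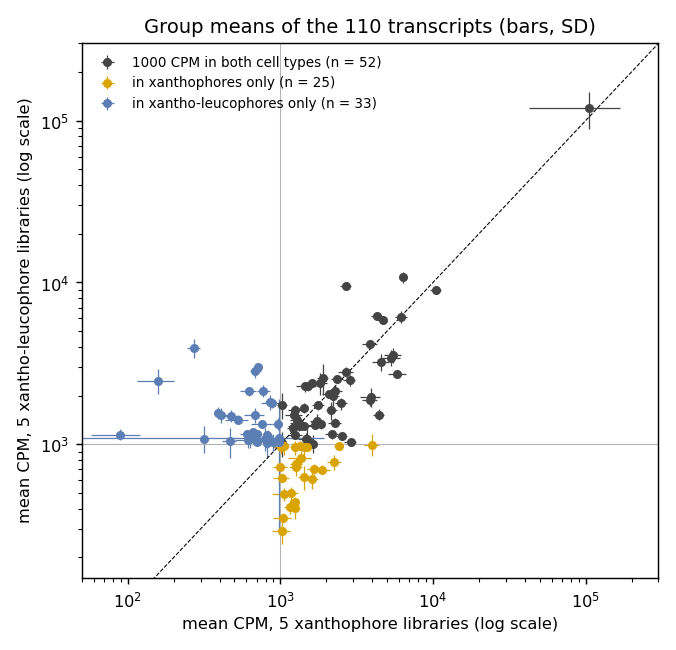
Each point gives the mean CPM of a transcript over the 5 xanthophore libraries (horizontal, log scale) and the 5 xantho-leucophore libraries (vertical, log scale), with bars for SD and a dashed line of equal values. Blue points far to the left are places 23, 56 and 110, at 271, 159 and 89.1 CPM in xanthophores, and no yellow point lies as far below the line. The wide bars of a blue point near the threshold are the SDs of place 74, 935 CPM in xanthophores and 808 in xantho-leucophores.

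Of the 52 transcripts abundant in both cell types, 4 moved up by at least 2-fold in rank from xanthophores to xantho-leucophores (7.69%) and 10 moved down (19.2%). Among transcripts with a mean of 100 to 1000 CPM, 11.3% moved up and 13.0% moved down. Near the top of the list a 2-fold move in rank takes few places. Place 2 counted as moved down from rank 2 to rank 4, at a ratio of means of 0.86, and did not pass the test. The shares of the 2 classes are therefore not like for like. The 58 that reached the threshold in a single cell type had to differ by the rule, and 20 of them moved up and 18 down. The 50 highest transcripts of each cell type by CPM had 33 in common. Within a single library, 87 to 91 of the 110 were among the 110 highest in xanthophores and 91 to 94 in xantho-leucophores. From 68 to 78 of them were at 1000 CPM or more in a xanthophore library and 74 to 88 in a xantho-leucophore library.

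The spread of these transcripts between libraries was small. The coefficient of variation of CPM had a median of 9.80% among xanthophores and 8.25% among xantho-leucophores, beside 13.8% and 15.7% for transcripts with a mean of 100 to 1000 CPM. It was under 10% for 58 of the 110 in xanthophores and for 71 in xantho-leucophores. In xanthophores X5 was the lowest library for 74 of the 110, and in xantho-leucophores XL2 was the lowest for 52. X5 is also the library in which place 1 took the largest share of the counts. When CPM were taken against the library total without place 1, X5 was the lowest for 43 of the other 109, and the median coefficient of variation of the xanthophores went from 9.77% to 6.03%. For the xantho-leucophores it went from 8.25% to 7.56%, and XL2 was then the lowest for 42.

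Only 4 transcripts had a coefficient of variation of at least 25% in xanthophores, namely places 1, 56, 74 and 110, and in xantho-leucophores only places 1 and 74. ENSDART00000167145.2, at place 74 with 6918 bases, had the largest in both, 94.9% and 74%. It was at 1707, 2259, 468, 219 and 276 CPM in X1 to X5 and at 1294, 2416, 577, 737 and 437 CPM in XL1 to XL5. Replicates 1 and 2 were the highest in both cell types. The group means of 986 and 1092 CPM differed by far less than the libraries within a group. Place 1, by contrast, was lowest in X1 and X2 among xanthophores and highest in XL2 and XL3 among xantho-leucophores.

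**Figure D5:**
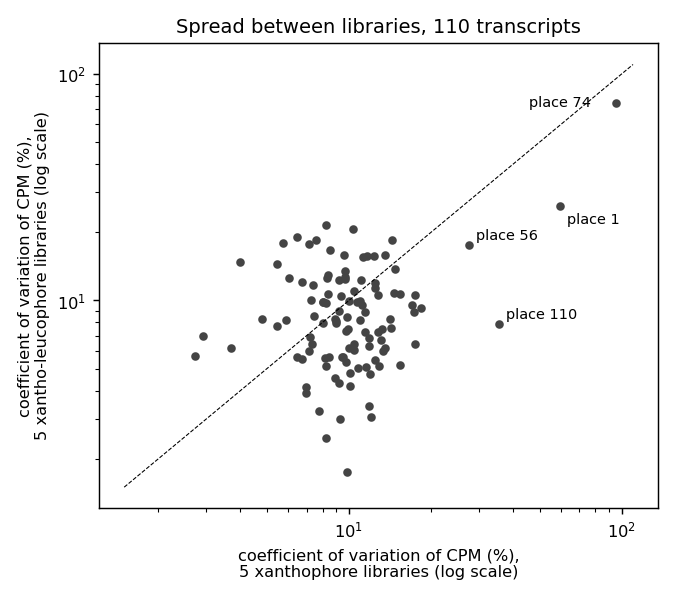
Each point gives the coefficient of variation of CPM (%) of a transcript among the 5 xanthophore libraries (horizontal, log scale) and among the 5 xantho-leucophore libraries (vertical, log scale), with a dashed line of equal values. Place 74 lies at 94.9% and 74% and place 1 at 59.5% and 26.1%, apart from the main cloud around 10%.

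The 110 transcripts had a median length of 1946 bases, from 408 to 20569, beside 1504 bases for all listed transcripts and 2112.5 for those with a mean of 100 to 1000 CPM. Of the 12 shorter than 1000 bases, 6 were abundant in both cell types, 5 in xantho-leucophores only and 1 in xanthophores only. None of the 6 was called lower, and 2 were called higher. Among transcripts of that length with a mean of 100 to 1000 CPM, 14.4% were called higher and 14.9% lower. Of the 14 with at least 5000 bases, 6 were abundant in both cell types, and 4 of those 6 were called lower and 1 higher. Among transcripts of that length with a mean of 100 to 1000 CPM, 19.3% were called in each direction. With 6 transcripts in each class, no relation to length is read from these counts. The part of transcript length in these calls was not tested beyond the fragment length covariate.

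For 81 of the 110 the estimated count was not whole in at least 1 library, so these shared reads with other transcripts, and the split of a count between similar transcripts is an estimate. The other 29 were printed as whole numbers in every library. That does not show that they were whole, because the files print 6 significant digits, counts of 100000 or more carry no decimals, and 8 of the 29 were at that level in at least 9 libraries. Both named transcripts that fell were among the 81, and both that rose were among those the printed digits do not settle.

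Values near the threshold were continuous. The last 3 transcripts inside it had a higher group mean of 1018, 1003 and 1002 CPM, and the first 3 outside it had 990.2, 978.9 and 978.1 CPM.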

How the data were processed

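RNA was sequenced from fluorescent cells sorted from anal fins, with 5 libraries per cell type from the SMART-Seq mRNA LP kit, per the labels' protocols. The submitters' processing notes name bcl2fastq, fastp and kallisto and the build GRCz11; versions and annotation release are not given in the sources used here. Each deposited table holds length and effective length in bases, estimated counts that are not normalized, and TPM, which the authors' tool scaled to a fixed sum by effective length.

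CPM were computed from the deposited estimated counts against each library total. Estimated counts were rounded and tested per transcript over the whole table in R 4.3.3 with edgeR 4.0.16. The test used filterByExpr, TMM scaling and a robust quasi-likelihood fit with group as the term. Benjamini-Hochberg adjustment ran over 28667 tested transcripts, with a threshold of 0.05. The SE of a log2 fold change was its size over the square root of the test's F statistic. The 95% intervals used this SE and a t quantile, and are not adjusted for the number of tests. All 110 transcripts passed the low-count filter. Alternatives used DESeq2 1.42.0 and limma 3.58.1, the latter on log2(TPM + 1) and log2(TPM + 0.1). Fragment length was the median of length minus effective length over transcripts longer than 5000 bases. Measures per library were compared by exact permutation over 252 arrangements, as 1 family of 4.

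Because no identifier could be paired with a gene, the named transcripts were the 2 with the largest change in each direction among the 52 abundant in both groups, called and without overlap of ranges. Those at places 1 and 74 were named after their values were seen, and so were the other places described. The members and the tests were chosen with earlier results of these data known. Lists of pigment pathway genes and of cell type markers need gene names and were not used. The counting error given at 1000 CPM leaves out spread between libraries, which the intervals of the fold changes include. Uncertainty in the split of reads between similar transcripts was not modelled in the tests, the intervals or the counting error.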

Additional observations from a re-analysis of the deposited data

Results flagged for a closer look

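Across 38 groups of 5 values, for library measures and for the transcripts at places 1 to 10 and the 4 named ones, 2 held a library set apart from its neighbour by more than 0.71 of the range over all 5. Chance alone gives about 1.9. Both were xantho-leucophore replicate 2. Its total was 7735704 estimated counts, and the other 4 libraries of its group had 49044916 to 59106662. Its fragment length was 235.05 bases, and the others had 210.92 to 217.19. Without this library 11 of the 52 transcripts were called higher and 19 lower, and 1521 of all 30411 tested transcripts were called. For the 2 longest transcripts, places 20 and 47, the log2 fold changes without it were 0.33 and 0.70 (edgeR adjusted p = 0.0549 and 0.000962), where all libraries gave 0.46 and 0.80.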

How the results depend on the processing

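Leaving out X5 together with XL2, removing the most abundant transcript before scaling and taking CPM without it were chosen after seeing the data. Of the 52 transcripts, 10 were called higher and 19 lower; DESeq2 called 17 higher and 20 lower, and the fragment length covariate 10 higher and 7 lower. The cause was not tested. The counts were 13 and 19 with median-of-ratios factors, 12 and 21 with upper-quartile factors or library sizes outside the list, 9 and 19 without a low-count filter, and 9 and 21 with limma at either pseudocount. Over all 28667 tested transcripts the main fit made 1443 calls. Median-of-ratios factors gave 1462, upper-quartile factors 1467 and library sizes outside the list 1477. Limma gave 2044 at a pseudocount of 1 and 1784 at 0.1. Without the filter 1285 of 48998 were called. With limma the median of all tested transcripts was -0.15 at a pseudocount of 1 and -0.27 at 0.1, and without the low-count filter it was -0.22. The median of the 52 was -0.13 with limma at either pseudocount and -0.04 without the filter. Without X5 and XL2 the higher and lower calls were 13 and 18, and with place 1 removed they were 11 and 19. Over all tested transcripts these fits called 1571 of 29678 and 1442 of 28672. Fits without 1 library gave 9 to 11 higher and 16 to 19 lower. Over all tested transcripts they made 1082 to 1521 calls, with 29630 to 30411 tested.

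The replicate block gave 9 higher and 15 lower, and over all tested transcripts the calls went from 1443 to 798. In that fit the median of all tested transcripts was -0.20 and that of the 52 was -0.03. Whether libraries of the same number share a pool of fish is not given in the sources used here, and the main fit treated them as unpaired. Deviations of same-numbered libraries correlated at -0.06 to 0.02 and those of others at -0.05 to 0.06. Only 1 of the 10 libraries correlated best with its own number. These values cannot settle the pairing, because a correlation over all tested transcripts can miss differences that pools leave in few of them. The 4 named changes kept their call in each of 21 alternatives. They had been picked as the largest called changes in these same libraries, so that outcome is little support for them.

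The rule gave 267 transcripts at 500 CPM and 41 at 2000 CPM. It gave 125 by TPM, 108 by medians, 89 where every library of a group had to reach it, 128 against totals without place 1, and 107 to 111 without 1 library. Taking place 1 out lowered the mean share of xanthophores from 30.2% to 21.9% and that of xantho-leucophores from 31.8% to 22.6%; without 1 library it was 28.6% to 31.5% and 31.2% to 32.4%. The difference in the share of the most abundant transcript, 1.40 percentage points, ran from -0.361 to 3.60 without 1 library and was -0.361 without X2. Without 1 library the difference in the share of the 10 most abundant ran from 0.371 without X2 to 4.04 without X5, that of the 100 most abundant from 0.157 to 3.08, and that in transcripts needed for 50% from -105.1 to -13.6. By TPM these were 4.17, 3.47 and -74.2. None of the 4 measures passed in any alternative, with the smallest exact permutation p at 0.0714.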
